A study of Mus musculus with 4 samples.

Results

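The ATF4 integrated stress response was followed through 10 genes in mouse blastocysts: Atf4, Ddit3, Trib3, Chac1, Sesn2 and Atf5 as stress factors, and Asns, Psat1, Phgdh and Shmt2 as enzymes of asparagine and serine metabolism. Each member was represented by every probe set that the platform annotation assigns to that gene alone. This gave 23 probe sets for the 10 genes, of 18194 genes with such a probe set on the array. A further 2 probe sets, each shared by Phgdh and a predicted gene of another name, were left out. RNA came from pools of 30 whole blastocysts at 96 hours (day 4), with 1 pool and 1 array for each of 4 conditions: diploid and tetraploid embryos of parthenogenetic origin, and diploid and tetraploid embryos from fertilized eggs. Parthenogenetic embryos develop from an egg without sperm, and tetraploid embryos carry a doubled chromosome set. The series uses tetraploid embryos in place of a repeat of the diploid ones. The labels name no strain and no way of making tetraploid embryos, and no condition has a replicate, so a comparison within 1 ploidy has no test. A blastocyst pool mixes trophectoderm, epiblast and primitive endoderm, so fewer cells of a type and less RNA per cell cannot be told apart.

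The integrated stress response begins when a kinase that senses amino acid shortage, unfolded protein, haem shortage or viral RNA phosphorylates the translation factor eIF2. Most protein synthesis then slows, while the Atf4 mRNA is translated more because of short reading frames ahead of its coding sequence, so ATF4 protein can rise with little change in its mRNA. ATF4, a basic leucine zipper transcription factor, binds C/EBP-ATF response elements and turns on genes of amino acid synthesis, amino acid uptake and tRNA charging, together with regulators that lead to recovery or to cell death.

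The core of the response element, TGATGNAA, was searched on both strands of the RefSeq promoters (assembly GRCm38.p6), which run from 250 bases before to 50 after the start of the gene. All 10 members had a promoter in this table (12 promoters in all). A match was found in 3 members, against 4.51% of the 27025 genes in the table. These matches are printed because they show the sequence through which ATF4 is known to act, each as 30 bases 5′ to 3′ on the strand that reads TGATG, with the core in capitals.
Chac1: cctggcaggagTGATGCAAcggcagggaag
Trib3: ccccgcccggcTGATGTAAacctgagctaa
Asns: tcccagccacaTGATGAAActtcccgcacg
The Chac1 stretch is chr2:119351038-119351067 on the minus strand, opposite to the gene, with the core 193 to 186 bases before the start. That of Trib3 is chr2:152344028-152344057 on the plus strand, again opposite to the gene, and its core covers bases 15 to 22 of the transcript. That of Asns is chr6:7693214-7693243 on the minus strand, the strand of the gene, with the core 23 to 16 bases before the start. Because the search fixed the other bases, the 8 bases can differ among these members only at the base written N. A match is a description of the sequence, and its absence from the other promoters says only that these letters are not in that window.

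The values are MAS5 signals, the 1 number per probe set that the Affymetrix algorithm gives on a linear scale. Array medians lay between 104 and 154, and a control floor, the 95th percentile of bacterial control probe sets, between 99.7 and 150.3. The defining blastocyst markers were present, with 9 of 9 trophectoderm and 8 of 8 epiblast markers above the floor on all arrays. The 3' to middle ratio of the Actb control was 5.13 on the parthenogenetic diploid and 5.55 on the fertilized tetraploid array. It was 7.55 on the fertilized diploid and 9.28 on the parthenogenetic tetraploid array. The arrays with the lower Actb ratios were also the high ones for the brightest probe sets of Trib3 and Sesn2, described below. For the Gapdh control the ratios were 3.86, 4.08, 3.72 and 5.22 in the same order. The part of these ratios in the members' differences was not tested.

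In diploid embryos, the members were mostly higher in parthenogenetic than in fertilized blastocysts, and in tetraploid embryos they were not. Between the diploid arrays 8 of the 10 genes had higher values in parthenogenetic embryos, where 50.6% of all 11404 genes tested did. The differences were at least 2-fold for Sesn2, Trib3, Chac1 and Atf5, 4 of 10 members against 9.93% of all genes, and no member was 2-fold lower (8.27% of all genes were). Between the tetraploid arrays 5 members were higher and 5 lower, and Atf5 alone passed 2-fold upward (14.8% of all genes did), and none passed 2-fold downward (10.1%). Atf5, a stress factor related to ATF4, was the member at least 2-fold higher by origin in both ploidies. None of these genes passed the test of origin across all probe sets. Each gene is represented here by its brightest probe set, and differences are on the scale of log2(signal + 10), which understates the change of dim probe sets.

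**Figure D1:**
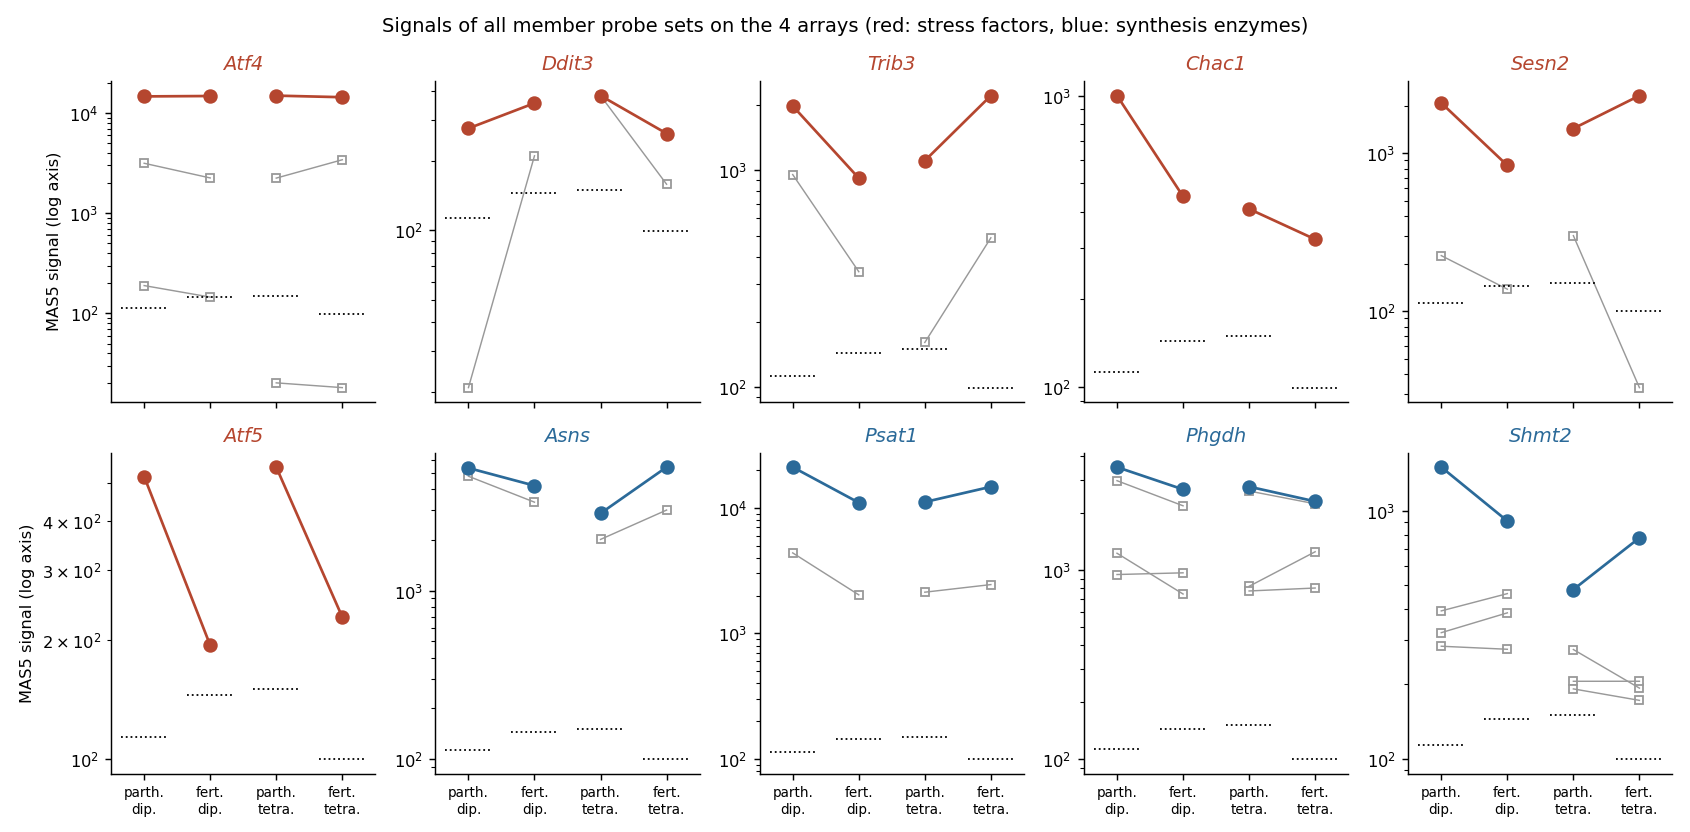
MAS5 signal (log axis) of all 23 member probe sets on the 4 arrays, with parthenogenetic and fertilized embryos of the same ploidy joined by a line. Filled circles are the brightest probe set of each gene (red for stress factors, blue for synthesis enzymes), open squares the other probe sets, and dotted lines the control floor of each array. Atf5 had 518 and 194 at the ends of the diploid line and 547 and 228 at those of the tetraploid line, while Trib3 and Sesn2 ran in opposite directions in the 2 ploidies.

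Atf4 itself showed no single pattern. Its brightest probe set, one whose name ends in _x_at and which may therefore bind other transcripts as well, gave 14659.5 and 14921 for parthenogenetic embryos, diploid first, and 14791 and 14389.5 for fertilized embryos in the same order. The highest of these signals was 1.04 times the lowest, a ratio undercut by only 12 of the 23746 probe sets tested. A second probe set without that ending gave 3154 and 2242 in parthenogenetic against 2250.3 and 3419 in fertilized embryos, diploid first. By this measure Atf4 was 1.40-fold higher in the diploid pair and 1.52-fold lower in the tetraploid pair. The third was dim, at 189.7 and 145.6 on the diploid arrays and below the floor on both tetraploid arrays, at 20.3 and 18.2.

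Ddit3 encodes CHOP, a transcription factor that dimerizes with C/EBP proteins and promotes cell death under lasting stress. On the diploid arrays it had 277 for parthenogenetic and 356 for fertilized embryos, and on the tetraploid arrays 383 and 263. The parthenogenetic value was the lower in the diploid pair (1.28-fold) and the higher in the tetraploid pair (1.44-fold), the opposite order to most other members. A dimmer probe set of Ddit3 gave 20.8, below the floor, and 210.4 on the diploid arrays and 383 and 158 on the tetraploid arrays, parthenogenetic first, which repeats that order with larger gaps, at least 1.79-fold lower and then 2.33-fold higher.

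Trib3, a pseudokinase that binds ATF4 and the kinase AKT and is known to dampen the response, had 1977 against 919.8 for parthenogenetic against fertilized embryos in the diploid pair, and 1107 against 2207 in the tetraploid pair. It was 2.14-fold higher in parthenogenetic diploid than in fertilized diploid embryos and 1.98-fold lower in the tetraploid pair. The other Trib3 probe set gave 955 against 341 and 161 against 488, so both probe sets changed sides between the ploidies. The parthenogenetic diploid and the fertilized tetraploid array were the high ones in each case.

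Sesn2 encodes sestrin 2, which senses leucine and restrains the growth kinase mTORC1. Parthenogenetic embryos had 2080.2 (diploid) and 1433 (tetraploid), and fertilized embryos 837 and 2314. It lay 2.47-fold higher in the diploid pair and 1.61-fold lower in the tetraploid pair, with the same high and low arrays as Trib3. Its dimmer probe set differed from this, with 225 and 301 in parthenogenetic embryos and values below the floor in fertilized ones (138 and 32.8), at least 2.07-fold higher in parthenogenetic embryos. The 2 probe sets of Sesn2 therefore disagree for the tetraploid pair.

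Chac1 encodes an enzyme that degrades glutathione and is a late target of ATF4 and CHOP. Its signal was 999.9 against 451 between the diploid arrays and 409 against 322 between the tetraploid arrays, parthenogenetic first. Only the parthenogenetic diploid array stood apart, at 2.19 times the fertilized diploid one. Between the tetraploid arrays Chac1 was 1.26-fold higher in parthenogenetic embryos.

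Atf5 is a further basic leucine zipper factor whose translation is regulated like that of Atf4, and it is known for roles in mitochondrial stress. Both parthenogenetic arrays (518, diploid, and 547, tetraploid) lay above both fertilized ones (194 and 228), so the origins did not overlap. The fitted difference was 1.30 ± 0.40 on the log2 scale (SE with 2 arrays of each origin), or 2.46-fold, with an adjusted p of 0.38 by limma. It was 2.59-fold in the diploid and 2.34-fold in the tetraploid pair. Atf5, like Chac1, had only 1 probe set, so no other could be set beside it. Its signal of 194 lay not far above the floor of the fertilized diploid array, 144.5. Of the 10 members, Atf5 and Phgdh were the ones whose brightest probe set did not overlap between origins, 2 of 10 against 41.8% of all genes. In both the parthenogenetic arrays were the higher, as for 22.3% of all genes. For Phgdh the gap was narrow, with 2757.7 on the parthenogenetic tetraploid against 2667.6 on the fertilized diploid array.

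Asns, the enzyme that makes asparagine from aspartate with nitrogen from glutamine, reached 5365 (diploid) and 2883 (tetraploid) when parthenogenetic, and 4214 and 5429 when fertilized. The low array was the parthenogenetic tetraploid one, 1.88-fold below its fertilized counterpart, while the diploid pair differed by 1.27-fold the other way. A dimmer probe set gave 4793 and 2018 against 3361 and 3017, with the same array lowest.

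Phgdh and Psat1 encode the first enzymes of serine synthesis, a dehydrogenase and an aminotransferase. Psat1 had 21082 against 10995 between the diploid and 11118.5 against 14709.9 between the tetraploid arrays, parthenogenetic first, 1.92-fold higher in the diploid and 1.32-fold lower in the tetraploid pair. Its other probe set gave 4374 against 2027 and 2128 against 2447. In both, the parthenogenetic diploid array was the highest and the fertilized tetraploid array the next. Phgdh was higher in parthenogenetic embryos of both ploidies, at 3499 against 2668 (diploid) and 2758 against 2305 (tetraploid) (1.31-fold and 1.20-fold higher). Of its other 3 probe sets, the brightest gave 2966 against 2184 and 2615 against 2238, the next 1225 against 746 and 819 against 1248, and the dimmest 945 against 965 and 774 against 802. All 4 Phgdh probe sets end in _x_at and they did not share 1 order of the arrays.

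Shmt2 is the mitochondrial enzyme that splits serine into glycine and a carbon unit for folate metabolism. Its brightest probe set had 1499 against 909 in the diploid pair and 481 against 778 in the tetraploid pair, parthenogenetic first. This probe set ends in _x_at, as do the brightest ones of Atf4, Trib3 and Phgdh. The 3.07-fold gap between the 2 parthenogenetic arrays was the widest ploidy difference among the brightest probe sets of the members. In the dimmer probe sets of Shmt2 that gap was 1.42, 1.54 and 1.46-fold. The dimmer probe sets did not repeat the 1.64-fold difference of the diploid pair, with 395, 322 and 284 in parthenogenetic diploid against 463, 388 and 276 in fertilized diploid embryos. They were lower on the tetraploid arrays of both origins, at 276, 205 and 191 and at 193, 205 and 172.

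Set against each other, both roles had higher medians in parthenogenetic embryos of the diploid pair, and the medians differed in sign in the tetraploid pair. The median log2 difference of the 6 stress factors was 1.11 in the diploid and 0.19 in the tetraploid pair. That of the 4 synthesis enzymes was 0.55 and -0.54, beside 0.01 and 0.05 for all genes tested. In the diploid pair all 4 enzymes had higher values, from 0.35 to 0.94, while the stress factors ran from -0.35 to 1.37 with Atf4 and Ddit3 on the lower side. In the tetraploid pair 1 of 4 enzymes and 4 of 6 stress factors had higher values. Scaling the arrays to a common median moved the median of all genes to -0.07 and -0.51. The stress factors then had 1.03 and -0.36 and the enzymes 0.47 and -1.10, so the tetraploid sign of the stress factors flipped. Relative to all genes the stress factors stayed above and the enzymes below in the tetraploid pair under that scaling and under quantile normalization (0.13 and -0.52, with 0.00 for all genes). With the mean of all probe sets of a gene in place of the brightest, the tetraploid medians were 0.61 and -0.17. Without _x_at probe sets, which leaves 3 of the enzymes, the tetraploid medians were -0.13 and -0.40. No test of the difference between roles or between ploidies is possible with 1 array for each condition.

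**Figure D2:**
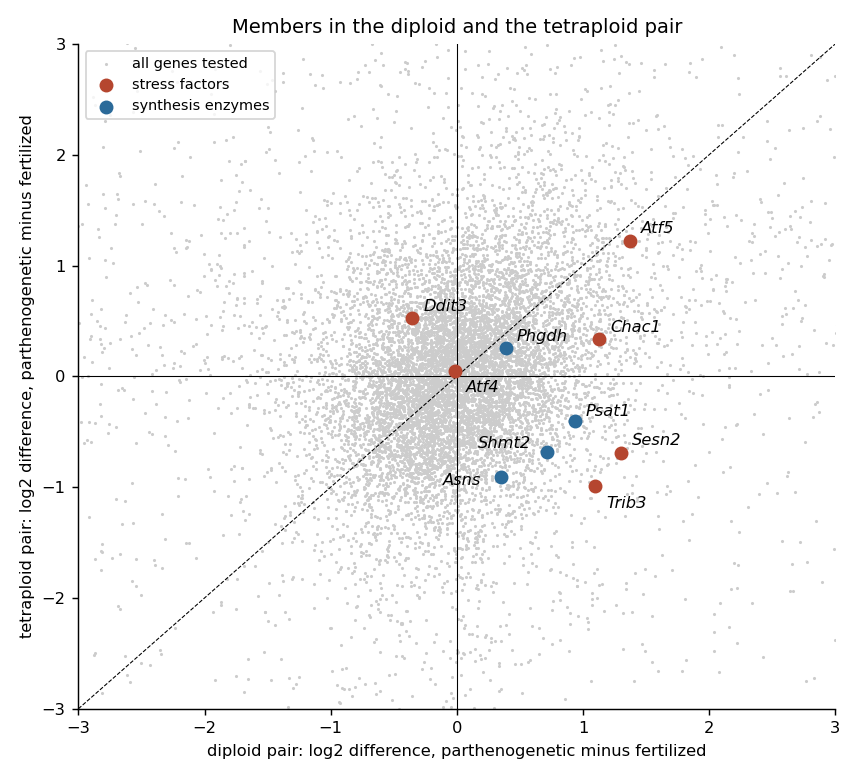
Log2 difference, parthenogenetic minus fertilized, in the diploid pair (x axis) and the tetraploid pair (y axis) for each member (red, stress factors, and blue, synthesis enzymes) and all 11404 genes tested (grey, with 535 genes outside the axes); the dashed line marks equal differences. Trib3, Sesn2, Psat1, Shmt2 and Asns lie at the lower right, higher in diploid and lower in tetraploid parthenogenetic embryos, and Atf5 lies near the line. With common median scaling Atf4, Ddit3, Chac1 and Phgdh move below 0 in the tetraploid pair.

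By array, the members' mean level, after each gene was centred on its own mean, was highest on the parthenogenetic diploid array for both roles (0.38 for stress factors and 0.51 for enzymes, log2). The lowest array differed: it was the fertilized diploid array for stress factors (-0.37) and the parthenogenetic tetraploid array for enzymes (-0.43). The fertilized tetraploid array lay near the mean in both, at -0.04 and 0.00. Higher values in the diploid and lower ones in the tetraploid pair were found for 5 of 10 members, Trib3, Sesn2, Asns, Psat1 and Shmt2, and for 19.8% of all genes. The reverse held for Ddit3 and, by differences of -0.01 and 0.05, for Atf4, 2 of 10 against 21.8% of all genes. Chac1, Atf5 and Phgdh were higher in both pairs (30.8% of all genes) and no member was lower in both (27.5%). The highest array was the parthenogenetic diploid one for 4 members, the parthenogenetic tetraploid one for 3 and the fertilized tetraploid one for 3, beside 24.3%, 31.8% and 17.8% of all genes. It was the fertilized diploid array for 0 members (26.1%). The lowest was a fertilized array for 8 members, diploid for 4 and tetraploid for 4 (23.5% and 25% of all genes), the parthenogenetic tetraploid one for 2 (31%) and the parthenogenetic diploid one for 0 (20.5%).

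The tetraploid and diploid arrays were also compared within each origin. In parthenogenetic embryos 7 of 10 members were lower in tetraploid than in diploid blastocysts and 3 higher, where 48.7% of all genes were higher, and Shmt2 (3.07-fold) and Chac1 (2.41-fold) were lower by at least 2-fold, 2 of 10 against 11% of all genes. No member was 2-fold higher (9.53%). In fertilized embryos 5 of 10 were higher, where 45.4% of all genes were, and Sesn2 (2.74-fold) and Trib3 (2.38-fold) were higher in tetraploid blastocysts by at least 2-fold, against 5.73% of all genes. No member was 2-fold lower there (9.81%). The synthesis enzymes had a median of -0.91 between the parthenogenetic arrays, with all 4 lower, and of 0.08 between the fertilized arrays. For the stress factors the medians were -0.25 and 0.09. Common median scaling, which moved all genes to -0.17 and 0.26 in these pairs, turned the sign of Atf4 in both, of Atf5 in the parthenogenetic pair, and of Phgdh and Shmt2 in the fertilized pair. Quantile normalization turned that of Atf4 in the parthenogenetic pair.

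**Figure D3:**
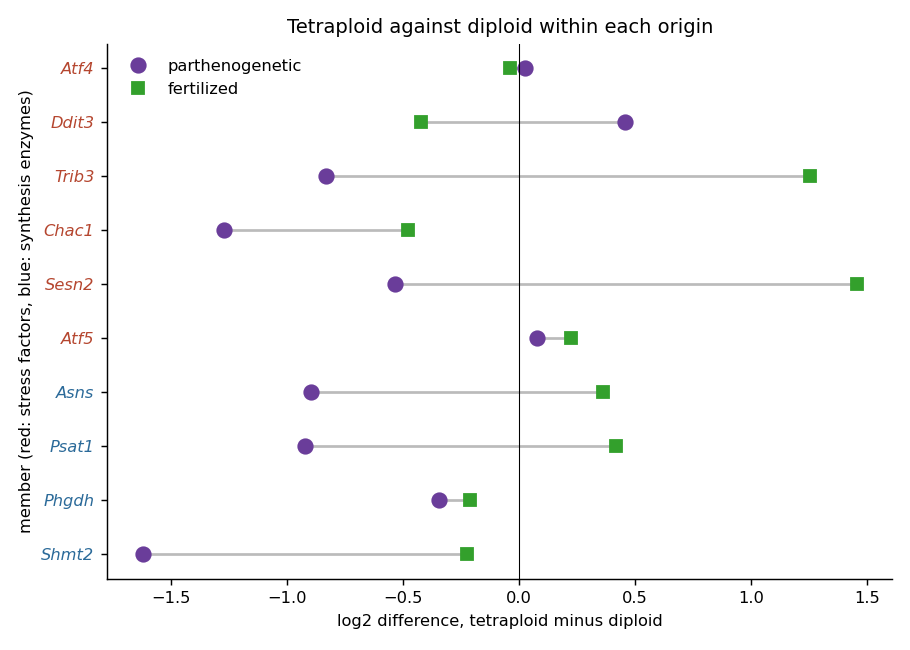
Log2 difference, tetraploid minus diploid, of each member's brightest probe set in parthenogenetic (circles) and fertilized embryos (squares), 1 array on each side of a difference. Trib3, Sesn2, Asns and Psat1 lie to the left of 0 in parthenogenetic and to the right in fertilized embryos, signs that held with common median and quantile scaling, while Atf5 and Atf4 lie near 0 in both and Atf4 changes sign with the scaling. The dimmer probe sets, not shown here, had the same signs for Trib3 and Psat1. That of Asns had -0.16 in fertilized embryos, and that of Sesn2 had 0.40 in parthenogenetic and -1.79 in fertilized embryos.

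The fit of origin, which takes the ploidies of an origin as its replicates, called 41 of 23746 probe sets at an adjusted p under 0.05 (0.173%), 0.0674% higher and 0.105% lower in parthenogenetic embryos. Of the 23 member probe sets, all of which passed the filter on dim signals, 0 were called by limma, with adjusted p from 0.38 to 0.99. At an unadjusted p under 0.05 there were 2, the probe set of Atf5 and the dimmer one of Sesn2 (1.76 ± 0.80 SE over 2 arrays of each origin, adjusted p 0.56 by limma), as there were 8.86% of all probe sets. Among the brightest probe sets the difference of Chac1 was 0.73 ± 0.45 (SE, limma adjusted p 0.65), that of Psat1 0.27 ± 0.31 (0.81) and that of Asns -0.28 ± 0.32 (0.81). The remaining ones lay between 0.02 for Shmt2 and Atf4 and 0.32 for Phgdh. The fit of ploidy, with origin as a covariate, called 0 of 23746 probe sets (0%), members included, where 1424 (6.0%) had an unadjusted p under 0.05. Among these were 3 member probe sets, all lower in tetraploid embryos: the brightest of Shmt2 (-0.92 ± 0.36 SE, limma adjusted p 0.78), that of Chac1 (-0.87 ± 0.39, 0.81) and the dimmer one of Asns (-0.70 ± 0.29, 0.79). These p-values measure only the spread between the 4 arrays.

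Genes around the members in the same response were taken as lists by function, again by the brightest probe set. In all of these lists 0 genes passed the origin test, and between 1 and 4 genes in each had an unadjusted p under 0.05, from 1 of 19 other synthesis enzymes and 1 of 15 genes of the eIF2 machinery to 4 of 14 other stress effectors and 3 of 8 transporters, beside 8.86% of all probe sets. The amino acid transporters that ATF4 is known to induce had a median of 0.82 in the diploid pair (7 of 8 higher) and 0.00 in the tetraploid pair. Slc7a5, which imports large neutral amino acids, was the highest of them by origin, at 3233 against 863 (diploid) and 1524 against 1157 (tetraploid) (1.14 ± 0.38 SE, limma adjusted p 0.43). Slc38a2, which imports small neutral amino acids, was the lowest, at 1605 against 4237 and 649 against 3858 (-1.97 ± 0.39, adjusted p 0.11). Its other probe sets gave -1.77 and, with signals near the floor, 0.86.

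Cytosolic aminoacyl-tRNA synthetases and the tRNA exporter Xpot, 20 genes tested, had medians of 0.47 and -0.30, and 13 of them were highest on the parthenogenetic diploid array, against 24.3% of all genes. Their extremes were Gars (0.89 ± 0.27, limma adjusted p 0.38) and Mars1 (-0.74 ± 0.29, 0.53), which charge tRNA with glycine and methionine. Other enzymes of amino acid synthesis and folate metabolism, 19 genes, had 0.29 and -0.51, and 0 of the 19 had higher values in the tetraploid pair (1 of 19 with quantile normalization), where 52.6% of all genes did. Psph, the last enzyme of serine synthesis, lay highest (0.41 ± 0.37, 0.74) and the aspartate aminotransferase Got1 lowest (-0.96 ± 0.37, 0.52). Mitochondrial chaperones and proteases, 9 genes, had 0.19 and -0.16, from Yme1l1 (0.27 ± 0.31, 0.81) to Clpp (-1.67 ± 0.35, 0.15; -0.67 by its other probe set).

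The partners and other regulators of ATF4, 11 genes, had medians of 0.59 and -0.29. Atf3, a stress-induced basic leucine zipper factor, was highest, at 355 and 372 in parthenogenetic embryos against 9.72 and 44.2, both below the floor, in fertilized ones (at least 2.87-fold, limma adjusted p 0.34). Atf3 passed the filter on dim signals only through the parthenogenetic arrays, so the filter itself selected it for this direction. It is counted above among the genes with an unadjusted limma p under 0.05. Dele1, the mitochondrial relay to the response, was lowest (-1.27 ± 1.03, 0.72), with 16.9 on the parthenogenetic diploid array, below the floor. Its other probe set gave -0.55, with 86.3 on the parthenogenetic tetraploid array, below the floor. Other stress effectors, 14 genes, had 0.92 and -0.24, with 12 of 14 higher in the diploid pair. Gadd45b, a growth arrest gene, was highest by origin at 552 and 1349 against 221 and 194 (2.01 ± 0.46, adjusted p 0.19), and Map1lc3b, of autophagy, lowest (-0.55 ± 0.25, 0.56). Other tested probe sets gave 1.20 for Gadd45b, and -0.06 and -0.10 for Map1lc3b, which do not repeat the difference of its brightest.

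The upstream machinery and a parallel stress pathway were described in the same way. The eIF2 kinases, eIF2 and eIF2B subunits and phosphatases, 15 genes, had -0.15 and -0.19, from Eif2b3 (-0.71 ± 0.34, limma adjusted p 0.59) to the X-linked subunit gene Eif2s3x (0.97 ± 0.24, 0.21). Genes of the XBP1 and ATF6 branches of the unfolded protein response, which answer to the endoplasmic reticulum, had 0.20 and 0.28 (20 genes, 13 and 16 higher), from Pdia3 (-0.09 ± 0.30, 0.94) to Dnajc3 (0.98 ± 0.34, 0.46). The other tested probe sets of Dnajc3 disagreed, at 0.22, -0.31 and -1.21, and the dimmest of Eif2s3x had 0.15. With common median scaling, where all genes had -0.07 and -0.51, the tetraploid median of every list in the plot of list medians was below 0, that of the unfolded protein response being -0.28 beside 0.11 in the diploid pair, and that of the transporters -0.56. These lists were described by their counts and medians only, and the differences between lists were not tested.

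**Figure D4:**
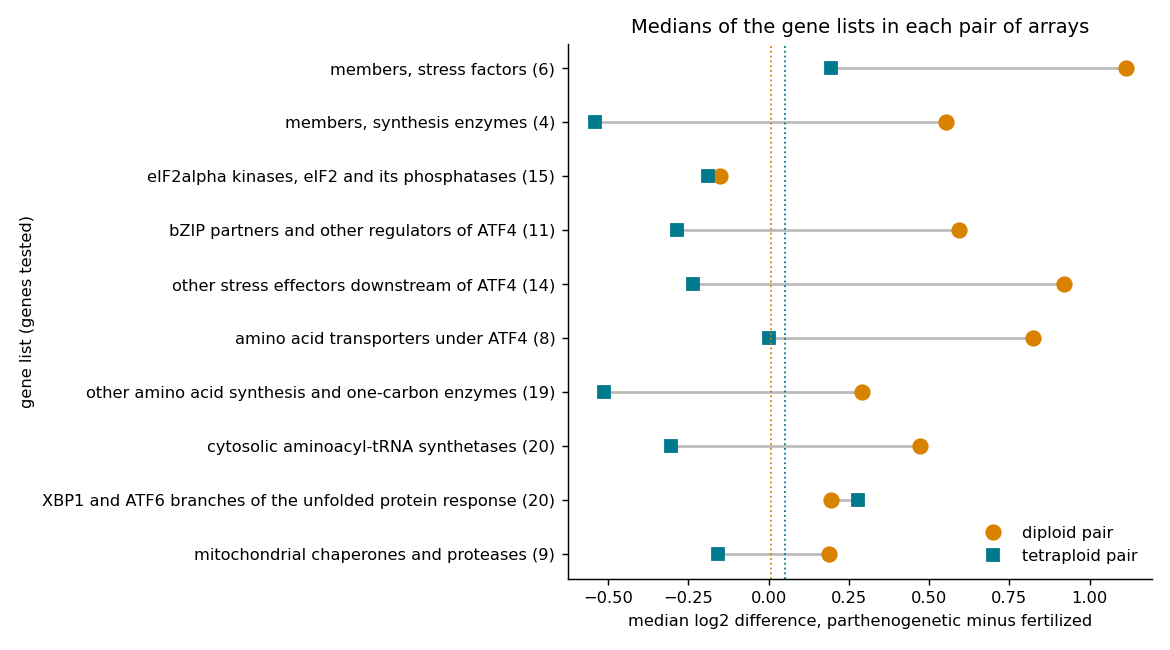
Median log2 difference, parthenogenetic minus fertilized, of each gene list in the diploid pair (circles) and the tetraploid pair (squares), with the number of genes tested in brackets and dotted lines at the medians of all genes. The diploid medians reach 1.11 for the stress factors and 0.92 for other stress effectors, and the tetraploid medians go down to -0.54 for the synthesis enzymes and -0.51 for other enzymes; with common median scaling every tetraploid median shown is below 0.

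The summed markers of the epiblast and primitive endoderm were lowest on the array where the enzymes were lowest, though not every marker was. The summed signal of 8 epiblast markers was 9435 on the parthenogenetic tetraploid array and 15462 to 17644 on the others, and that of 8 primitive endoderm markers was 17587 against 30630.2 to 35924. Singly, 5 of the 8 epiblast markers (not Pou5f1, Esrrb or Gdf3) and 6 of the 8 primitive endoderm markers (not Sox7 or Foxa2) were lowest there. For all genes tested that share was 31%. All 8 epiblast and 7 of 8 primitive endoderm markers were above the floor on that array. The summed signal of 9 trophectoderm markers varied less, from 83791 to 95529, and was highest on that array. Of these 9 markers 3 were lowest there (Krt18, Gata3 and Tead4), and single markers varied more than the sum. Eomes ran from 8014 on the fertilized diploid to 18158 on the parthenogenetic tetraploid array. For cumulus cells, 1 to 4 of 7 markers were above the floor, most on the parthenogenetic diploid array, with sums of 331 to 969, and for fibroblasts 2 to 4 of 7, with sums of 2168 to 4167. No marker signal was exactly 0. The part of these markers in the low mean of the synthesis enzymes on the parthenogenetic tetraploid array was not tested.

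Outside the lists, the genes nearest to the mean centred profile of the 10 members over the 4 arrays were Rpn2, Bmyc and Flvcr2, at distances of 0.05, 0.05 and 0.07 on the log2 scale among 11249 genes. Rpn2, a subunit of the enzyme that adds sugar chains to proteins in the endoplasmic reticulum, had 1679 against 1036 in the diploid and 1129.7 against 1273 in the tetraploid pair. With only 4 arrays such a profile is common: 4384 genes were nearer to it than the median member, whose distance was 0.80.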

How the data were processed

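Each of the 4 arrays measured RNA from 1 pool, extracted with a kit for small samples and amplified in a two-cycle protocol, per the labels' protocols. The authors deposited 1 intensity per probe set and array, and the submitters' processing notes name MAS5 without a version. All arrays had a trimmed mean of 500.0 (2% cut from each end), and that deposited scaling was kept. Genes came from the platform annotation, updated by gene number through the RefSeq table (34741 of 34945 probe sets with 1 symbol matched).

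Signals were analysed as log2(signal + 10). Probe sets at or above the array median on at least 2 arrays were kept (23746 of 45101). Origin (2 against 2 arrays, 2 residual degrees of freedom) and ploidy (origin as covariate, 1 residual degree of freedom) were fitted in limma 3.58.1 under R 4.3.3 (eBayes with an intensity trend), two-sided, with Benjamini-Hochberg adjustment over all probe sets kept. The scripts were tested on simulated data. The floor rests on 27 bacterial control probe sets (no spike-in is mentioned in the labels), and where the lower signals lay below it a fold is given as "at least". The number of arrays limits the precision.

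All members are named. Of other lists, genes past the threshold and the extremes by origin are named, with the 3 nearest profiles. Of the genes listed beside the members, 9 of 135 had no probe set of their own and were not analysed here. Others had a probe set but did not pass the filter on dim signals, so list counts and medians cover only the genes tested. Of 18 other stress effectors with a probe set 14 were tested, and of 10 transporters 8. Members, lists and tests were chosen with earlier results of these data known. Alternatives were other pseudocounts, filters, scalings, terms and probe set choices, and leaving out each array.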

Additional observations from a re-analysis of the deposited data

Results flagged for a closer look

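For 7 members the difference between parthenogenetic and fertilized embryos had opposite signs in the diploid and the tetraploid pair. The diploid minus the tetraploid difference (log2) was 2.08 for Trib3, 1.99 for Sesn2, 1.40 for Shmt2, 1.34 for Psat1 and 1.26 for Asns. It was -0.88 for Ddit3, and -0.065 for Atf4. Each side of a pair is 1 array, so none of these differences was tested. With common median scaling Ddit3 and Atf4 had the same sign in both pairs, and the dimmer probe sets of Shmt2 and Sesn2 did not share the sign change of the brightest.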

How the results depend on the processing

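No member probe set passed the threshold of either fit under any alternative run. The count of all probe sets called by origin was 0 without the intensity trend (1850 at an unadjusted p under 0.05) and 142 with ploidy as a block, and ran from 46 to 715 when 1 array was left out (715 without the parthenogenetic diploid and 175 without the parthenogenetic tetraploid array). By ploidy it was 19 with a pseudocount of 1, 73 without the filter, 12 with common median scaling and 55 with quantile normalization; with origin as a term, leaving out an array could not be fitted. Common median scaling turned the origin medians to -0.12 (stress factors), -0.18 (synthesis enzymes) and -0.14 (all members), beside -0.30 for all genes, and the tetraploid median of the stress factors to -0.36. Without _x_at probe sets, a choice made after seeing the data, that last median was -0.13. With 1 array left out, the origin medians ran from 0.07 to 0.59 for stress factors, from -0.46 (without the parthenogenetic diploid array) to 0.61 for enzymes and from 0.04 to 0.54 for all members. The cause was not tested. The origin differences of single members changed sign with common median scaling for Atf4 (-0.30), Ddit3 (-0.23), Trib3 (-0.27), Sesn2 (-0.014), Psat1 (-0.056) and Shmt2 (-0.30), and with quantile normalization for Atf4 (-0.012). With 1 array left out they ran from -0.57 to 0.68 for Trib3, -0.42 to 1.04 for Sesn2, -0.79 to 0.83 for Shmt2, -0.19 to 0.73 for Psat1, -0.73 to 0.17 for Asns and -0.14 to 0.32 for Ddit3, and from -0.00010 to 0.040 for Atf4. Atf5, Chac1 and Phgdh kept their sign under all alternatives run, but with 1 array left out Chac1 ran from 0.10 (without the parthenogenetic diploid array) to 1.37 and Phgdh from 0.15 to 0.50, and with common median scaling Phgdh was at 0.0013.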

Other observations

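Several further genes of the response shared the order of Trib3 and Sesn2, with the parthenogenetic diploid and the fertilized tetraploid array above the other 2. They are named after their values were seen. The secreted glycoprotein gene Stc2 had 1036 against 114 in the diploid pair and 104 against 491 in the tetraploid pair, parthenogenetic first, and the low values, 114 and 104, lay below the floor. The growth factor gene Vegfa had 319 against 120.0 and 92.2 against 361, again with the low values below the floor, and the lipoprotein receptor gene Vldlr 1363 against 599.6 and 343 against 844. The mTORC1 inhibitor gene Ddit4 had 7468 against 3071 and 5323 against 7709.6. Stc2 and Vegfa passed the filter on dim signals only through the 2 arrays where they were high, so the filter itself selected them for this order. Aldh1l2, counted below among the other synthesis enzymes, passed in the same way. This order was found for 4 of the 10 members (Trib3, Sesn2, Asns and Psat1), for 4 of 14 other stress effectors (the genes named here), for 5 of 11 regulators, for 3 of 8 transporters, for 4 of 9 mitochondrial chaperones and proteases, for 9 of 20 tRNA synthetase and exporter genes, for 9 of 19 other synthesis enzymes, for 1 of 15 genes of the eIF2 machinery, for 1 of 20 genes of the unfolded protein response and for 12.6% of all genes tested.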
